A study of Mus musculus with 24 samples.

Results

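Lungs of 3 mice given C-DEP diesel exhaust particles with ovalbumin were compared with lungs of 3 mice given N-DEP particles with the same allergen. These 6 arrays were chosen by their sample titles, CDEP/OVA replicates 1 to 3 and NDEP/OVA replicates 1 to 3, and belong to a series of 24 arrays in 8 groups of 3. All mice were female BALB/C animals, an inbred laboratory strain, 8 to 10 weeks of age. The CDEP/OVA group received 150 ug of C-DEP and 20 ug of ovalbumin (OVA, an egg white protein used as a model allergen), and the NDEP/OVA group received 150 ug of N-DEP and 20 ug of OVA. Groups set beside them were ADEP/OVA (150 ug of a particle labelled A-DEP with 20 ug of OVA), CDEP and NDEP (150 ug of the particle without OVA), OVA alone (20 ug, titled Saline/OVA) and saline. Mice were dosed intranasally on day 0 and again on day 13, and the lungs were collected 18 hours after the second dose. The 4 groups with OVA are labelled as sensitized and the 4 without it as not sensitized, so OVA and sensitization cannot be told apart. The series describes the diesel samples as chemically distinct, and their composition was not analysed here. One dose and 1 time were measured, which limits these animals as a model of exposure over time.

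Interferon gamma, released mainly by natural killer (NK) cells and T cells, binds a receptor on most cells. The response includes chemokines that attract T cells and NK cells, GTPases that attack microbes inside cells, and the proteins that cut and load peptides on MHC class I. Allergic airway inflammation is usually described by another programme, in which interleukins 4 and 13 drive mucus-producing goblet cells, eotaxin chemokines and alternatively activated macrophages. Diesel particles carry soot and organic compounds, and genes of the aryl hydrocarbon receptor and of the antioxidant factor NRF2 are common readouts of them.

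Expression was measured on 1-colour Affymetrix arrays, with values deposited as normalized intensity. Medians of the 6 arrays lay between 72.2 and 73.9 intensity units, and their pairwise correlations across probe sets lay between 0.990 and 0.995. Levels below are log2 intensities and differences are log2 differences, CDEP/OVA minus NDEP/OVA, followed by the standard error. That error uses a spread pooled over all 8 groups of the series. Tests come from limma across 12393 genes, 1 probe set each, with Benjamini-Hochberg adjusted p-values and a threshold of 0.05. A gene is called dim in a group when its mean there lies below the 25th percentile of each array of the group, so it is not shown to lie above background. The number of arrays limits the precision, and the median standard error of a difference was 0.12. Lung tissue markers were present in both groups. Of 15 alveolar type 2 and surfactant genes 13 were lower in CDEP/OVA, with a median of -0.09. An unadjusted p under 0.05 was reached by 2, both lower (13.3%, against 4.53% of all genes). The arrays did not overlap for 4, all lower (26.7%, against 7.33% of all genes). Of 11 club cell genes 7 were higher, with a median of 0.09 and 2 higher without overlap (18.2%, against 4.25% of all genes). No gene of either list passed. Sftpc, a surfactant gene whose probe sets differ in sign, was at -0.06, and the club cell gene Scgb1a1 at -0.11, with limma adjusted p of 0.919 and 0.825. The RNA quality measure, the 3' minus 5' difference of control probe sets, was 0.396 ± 0.196 in CDEP/OVA and 0.369 ± 0.136 in NDEP/OVA for Gapdh (SD, n = 3, exact permutation p = 1.0, smallest possible p 0.1).

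The groups with the 2 particles were close to each other, and the largest differences were higher in CDEP/OVA, many of them in genes that interferon gamma induces. Of 12393 genes, 99.3% differed by less than 0.5 in log2 and 10 by at least 1, all 10 of them higher in CDEP/OVA. Gbp6 passed the threshold, higher in CDEP/OVA, and no gene passed as lower, which is 0.00807% of the genes tested. Without adjustment, p was under 0.05 for 346 higher and 562 lower genes, which is 2.79% and 4.53%. Arrays of both groups did not overlap for 527 higher and 909 lower genes, or 4.25% and 7.33%. The 10 genes with the smallest p were Gbp6, Gbp8, Gbp3, Irgm2, Igtp, Cxcl9, Cxcl10, Arg1, Irgm1 and Gbp2b, and 7 of them stand in the list of interferon-gamma chemokines and GTPases. Gbp6 (Entrez 100702), Gbp8 (Entrez 76074), Cxcl9 (Entrez 17329) and Cxcl10 (Entrez 15945) lie on chromosome 5, Gbp3 (Entrez 55932) and Gbp2b (Entrez 14468) on chromosome 3, Irgm2 (Entrez 54396), Igtp (Entrez 16145) and Irgm1 (Entrez 15944) on chromosome 11, and Arg1 (Entrez 11846) on chromosome 10. In whole lung, more cells of a type and more RNA per cell cannot be told apart.

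**Figure D1:**
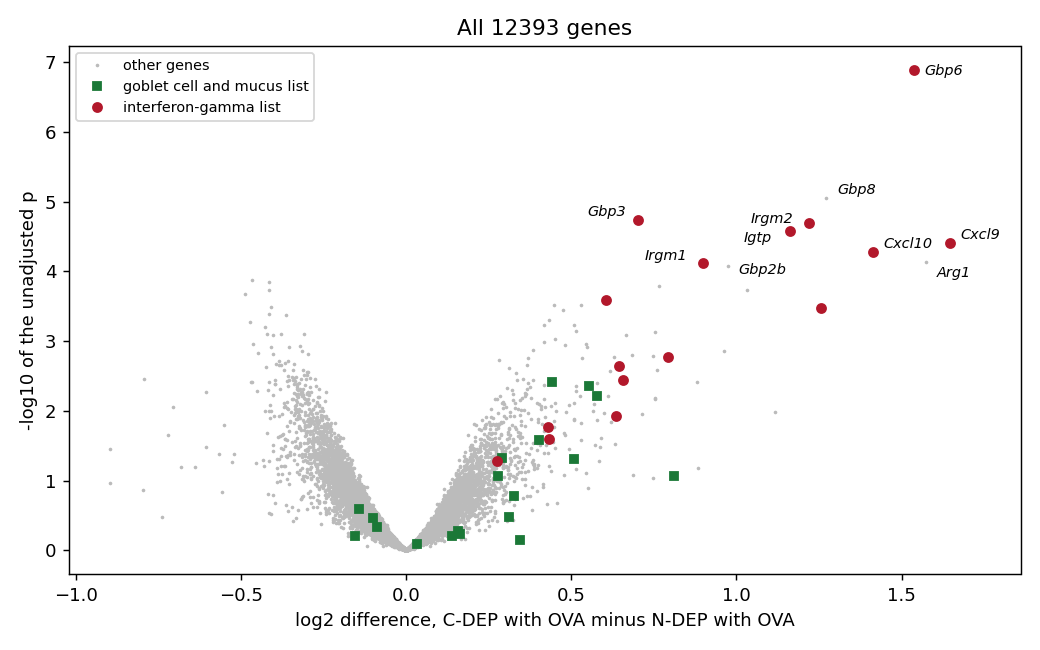
Log2 difference between CDEP/OVA and NDEP/OVA (x axis) against -log10 of the unadjusted p (y axis) for 12393 genes, with the interferon-gamma list as red circles and the goblet cell and mucus list as green squares. The 16 red circles all lie right of 0, between 0.28 and 1.65, and Gbp6 stands above every other gene at a difference of 1.54.

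Gbp6 encodes a guanylate-binding protein, a GTPase that interferon gamma induces and that acts against microbes inside cells. Its level was 8.08, 8.03 and 7.04 in the CDEP/OVA lungs, against 6.46, 5.69 and 6.38 in the NDEP/OVA lungs and 5.67, 5.50 and 5.40 with OVA alone. Every CDEP/OVA lung lay above every NDEP/OVA lung, and replicate 3 was the lowest of its group. The level averaged 7.71 ± 0.59 in CDEP/OVA and 6.18 ± 0.42 in NDEP/OVA (SD, n = 3 each). This is a 2.90-fold higher level, a log2 difference of 1.54 ± 0.21 with a 95% interval of 1.11 to 1.97 (limma adjusted p = 0.0016). With any 1 of the 6 arrays left out, the difference stayed between 1.30 and 1.88 and passed the threshold (limma adjusted p of 3.06e-06 to 0.0456). This standard error and interval rest on a spread pooled over all 8 groups. For the interferon-gamma list's mean level, the SD was 0.55 in CDEP/OVA and 0.28 in NDEP/OVA, against 0.03 to 0.18 in the other groups. The pooled error can therefore be too small for the compared groups. Fitted on the 6 arrays alone, the same Gbp6 difference had a limma adjusted p of 0.449.

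Other guanylate-binding proteins had high values on the same arrays but missed the threshold. Gbp8 was at 6.32, 6.09 and 5.02 in CDEP/OVA, against 4.99, 4.39 and 4.22 in NDEP/OVA, a difference of 1.27 ± 0.23 (limma adjusted p = 0.0551). Its NDEP/OVA replicates 2 and 3 lay below 4.45, the lowest 25th percentile of the arrays, so the size of its difference is uncertain. Gbp3 was at 8.31, 7.97 and 7.80 in CDEP/OVA, against 7.60, 7.20 and 7.17 in NDEP/OVA, a difference of 0.70 ± 0.13 (limma adjusted p = 0.0624). For both genes the 3 CDEP/OVA lungs lay above the 3 NDEP/OVA lungs, by a small margin for Gbp8 where CDEP/OVA replicate 3 met NDEP/OVA replicate 1. Gbp2b, another member of the family, was at 10.07, 9.94 and 8.95 in CDEP/OVA, against 9.13, 8.28 and 8.63 in NDEP/OVA, a difference of 0.97 ± 0.21 (limma adjusted p = 0.105). Gbp2 differed by 0.64 ± 0.19 (limma adjusted p = 0.422). In these last 2 genes CDEP/OVA replicate 3 fell inside the NDEP/OVA range. Members of the family are close in sequence, and sharing of signal between their probe sets was not tested.

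Immunity-related GTPases are the second family of interferon-induced GTPases, and help to destroy the vacuoles in which some microbes live. Irgm2 was at 8.97, 8.80 and 7.83 in CDEP/OVA, against 7.52, 7.30 and 7.13 in NDEP/OVA, a difference of 1.22 ± 0.23 (limma adjusted p = 0.0624). Igtp (also called Irgm3) was at 10.51, 10.16 and 9.17 in CDEP/OVA, against 9.26, 8.46 and 8.64 in NDEP/OVA, a difference of 1.16 ± 0.22 (limma adjusted p = 0.065). The groups did not overlap for Irgm2, while for Igtp CDEP/OVA replicate 3 lay just below NDEP/OVA replicate 1. Irgm1 differed by 0.90 ± 0.19 (limma adjusted p = 0.105), Iigp1 by 1.26 ± 0.30 (limma adjusted p = 0.196) and Ifi47 by 0.64 ± 0.23 (limma adjusted p = 0.546). These 3 genes overlapped between the groups, each with CDEP/OVA replicate 3 as the lowest of its group.

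Cxcl9, Cxcl10 and Cxcl11 are ligands of Cxcr3, the receptor that guides activated T cells and NK cells into tissue. Cxcl9 was at 8.15, 8.59 and 6.47 in CDEP/OVA, against 5.99, 5.59 and 6.70 in NDEP/OVA and 4.94, 4.65 and 5.05 with OVA alone. It had the highest difference of all genes, 1.65 ± 0.33, but overlapped, because CDEP/OVA replicate 3 lay below NDEP/OVA replicate 3 (limma adjusted p = 0.0804). Cxcl10 was at 8.68, 9.10 and 7.34 in CDEP/OVA, against 7.12, 6.46 and 7.31 in NDEP/OVA, a difference of 1.41 ± 0.29 (limma adjusted p = 0.0921). The groups did not overlap, but CDEP/OVA replicate 3 and NDEP/OVA replicate 3 were almost level. Cxcl11 was at 5.45, 6.62 and 5.15 in CDEP/OVA, against 5.14, 4.68 and 5.02 in NDEP/OVA, a difference of 0.79 ± 0.22 (limma adjusted p = 0.386).

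Arg1, an arginine-degrading enzyme of alternatively activated macrophages that is not on the interferon list, was also among the 10. It was at 7.06, 8.53 and 6.71 in CDEP/OVA, against 6.16, 4.98 and 6.45 in NDEP/OVA and 4.11, 4.13 and 4.08 with OVA alone. The groups did not overlap, and replicate 2 was the highest array of CDEP/OVA and the lowest of NDEP/OVA. The difference was 1.57 ± 0.33 (limma adjusted p = 0.105). Arg1 rose against OVA alone in both groups (limma adjusted p = 6.18e-07 in CDEP/OVA and 0.00374 in NDEP/OVA). With OVA alone it was below the 25th percentile of each array, so the size of that rise is not measured.

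**Figure D2:**
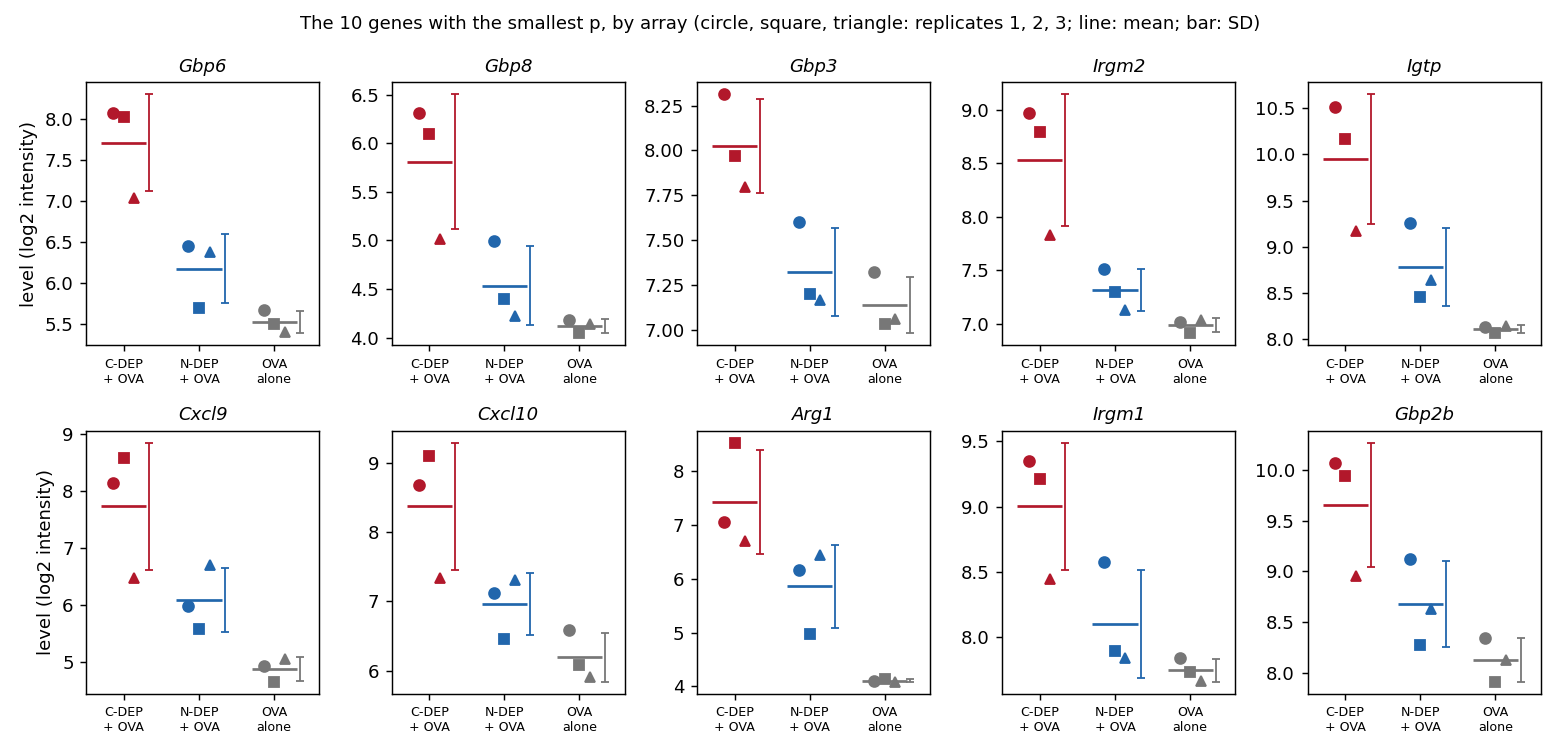
Level (log2 intensity) of the 10 genes with the smallest p on each array of CDEP/OVA, NDEP/OVA and OVA alone, with the mean as a line and the SD as a bar (n = 3). CDEP/OVA replicate 3, the red triangle, is the lowest array of its group in all 10 panels, and for Gbp6 it still lies above the NDEP/OVA arrays, at 7.04 against at most 6.46.

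Upstream sequences are shown for 5 of these genes, because members with like differences between the groups can be read for motifs they share. The RefSeq table (GRCm38.p6) held 7 of the 10 genes, and Gbp6, Gbp8 and Arg1 were not among them. Each line gives the 250 bases before the annotated start, 5′ to 3′ on the gene's strand, with matches in capitals.
Gbp3 (chr3:142559794-142560043, + strand): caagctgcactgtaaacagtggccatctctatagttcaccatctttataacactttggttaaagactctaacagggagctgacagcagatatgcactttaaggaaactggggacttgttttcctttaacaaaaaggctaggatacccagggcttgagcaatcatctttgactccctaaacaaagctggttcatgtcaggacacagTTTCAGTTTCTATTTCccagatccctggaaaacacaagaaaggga
Irgm2 (chr11:58214727-58214976, + strand): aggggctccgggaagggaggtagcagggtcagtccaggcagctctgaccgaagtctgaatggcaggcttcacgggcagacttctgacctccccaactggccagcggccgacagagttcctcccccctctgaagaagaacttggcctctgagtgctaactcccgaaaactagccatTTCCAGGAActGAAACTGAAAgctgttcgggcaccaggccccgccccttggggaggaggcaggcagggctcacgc
Igtp (chr11:58199306-58199555, + strand): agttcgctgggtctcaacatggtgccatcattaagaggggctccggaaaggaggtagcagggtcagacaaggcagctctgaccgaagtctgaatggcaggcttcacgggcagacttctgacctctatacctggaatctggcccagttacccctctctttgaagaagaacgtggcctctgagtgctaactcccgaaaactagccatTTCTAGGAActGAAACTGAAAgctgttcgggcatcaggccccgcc
Cxcl10 (chr5:92348890-92349139, - strand): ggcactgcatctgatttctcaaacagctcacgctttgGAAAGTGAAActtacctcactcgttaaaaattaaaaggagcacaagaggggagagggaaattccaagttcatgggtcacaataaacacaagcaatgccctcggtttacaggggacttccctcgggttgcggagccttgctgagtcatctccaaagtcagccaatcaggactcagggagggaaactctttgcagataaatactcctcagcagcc
Cxcl9 (chr5:92328080-92328329, - strand): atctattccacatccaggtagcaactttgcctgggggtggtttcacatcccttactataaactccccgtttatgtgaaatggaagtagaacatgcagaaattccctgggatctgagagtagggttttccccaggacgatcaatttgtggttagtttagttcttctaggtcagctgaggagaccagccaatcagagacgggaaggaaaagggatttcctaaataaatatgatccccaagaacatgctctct
Capitals mark 2 patterns. One is GAAA, any 2 bases and GAAA on either strand, the core of the interferon-stimulated response element that interferon regulatory factors bind. The other is TTC, any 3 bases and GAA, a form of the gamma-activated site found at interferon-gamma target genes, which reads the same on both strands. Of the 7 upstream sequences, 6 held the response element core (85.7%), against 3.04% of 27025 genes in the table. Of the 12 measured members of the interferon list in the table, 6 held it (50%). The gamma-activated site pattern stood in 2 of the 7 (28.6%) and 4 of the 12 (33.3%), against 7.18% of all genes. Irgm2 and Igtp, which lie close together on chromosome 11, held both motifs side by side in the same order. Their upstream sequences share long identical stretches, so they do not count as independent cases. They are the 2 of the 7 with the gamma-activated site pattern. Gbp3 held 2 overlapping matches of the response element core, and Cxcl9 had neither motif in this window. A match of letters is a description and not a site shown to be bound.

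The whole list of interferon-gamma chemokines and GTPases held 20 genes, of which 16 were measured. All 16 had a higher value in CDEP/OVA, against 44% of all genes, and 1 of them, Gbp6, passed the threshold. An unadjusted p under 0.05 was reached by 15 of 16, higher in CDEP/OVA, against 2.79% of all genes, and the arrays did not overlap for 5 of 16, against 4.25%. The median difference was 0.75, between 0.28 for the transcription factor Irf1 and 1.65 for Cxcl9, and the median of all genes was -0.02. Members of antigen processing were in the lower part of that range, with the peptide transporter Tap1 at 0.66 ± 0.20 and the immunoproteasome subunits Psmb8 and Psmb9 at 0.43 ± 0.17 and 0.43 ± 0.18. The tryptophan-degrading enzyme Ido1, dim in NDEP/OVA, was at 0.61 ± 0.14 (limma adjusted p = 0.188). Gbp4, Gbp5 and Tgtp1 were among those not measured by a probe set with 1 gene symbol.

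Within each group the list moved together from array to array. Its mean level was 8.79, 8.75 and 7.81 in the CDEP/OVA lungs, against 7.82, 7.26 and 7.59 in the NDEP/OVA lungs. CDEP/OVA replicates 1 and 2 were high, and replicate 3, at 7.81, lay within the NDEP/OVA range. CDEP/OVA replicate 3 was the lowest of its group for 16 of 16 members, as it was for 4953 of all 12393 genes, and NDEP/OVA replicate 1 was the highest of its group for 12 of 16, against 43.7%. Without CDEP/OVA replicate 3 the list's median difference was 1.02, and 30 genes passed the threshold, all higher, 14 of them on the list. Without NDEP/OVA replicate 1, 13 genes passed, 11 higher and 2 lower, the CC chemokine Ccl6 and the fatty acid binding protein Fabp4. With any 1 of the 6 arrays left out, the list's median lay between 0.64 and 1.02.

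Without OVA, the same particles gave values near 0 for these genes. The 6 arrays of CDEP and NDEP are separate from those above. No gene passed the threshold there (0% of genes by limma), and 734 genes, 5.92%, had an unadjusted p under 0.05. For the 16 interferon genes the median of CDEP minus NDEP was -0.06, between -0.34 and 0.13, with 5 higher values and 0 of 16 at an unadjusted p under 0.05. Gbp6 was at 5.30, 5.35 and 5.26 in CDEP, against 5.68, 5.57 and 5.45 in NDEP, a difference of -0.26 ± 0.21 (limma adjusted p = 0.93). Here the CDEP lungs were the lower ones, by a small margin and without overlap. The 3 genes with the smallest p without OVA were the iron exporter Slc40a1, 2410004B18Rik and Ikbip, at -0.64 ± 0.12, -0.39 ± 0.08 and -0.47 ± 0.11 (limma adjusted p of 0.252, 0.575 and 0.575). With OVA the same 3 genes had differences of 0.25, 0.13 and 0.12.

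The difference with OVA minus the difference without OVA was tested as an interaction, and Gbp6 passed as higher, 0.00807% of genes. For Gbp6 it was 1.80 ± 0.30 (limma adjusted p = 0.0324). That call was lost with 9 of the 12 arrays when left out singly, with adjusted p up to 0.213, and in the fit limited to the 4 groups compared (limma adjusted p = 0.339). Without CDEP/OVA replicate 3, 10 genes passed, and without NDEP/OVA replicate 1, 4 did. All 16 interferon genes had a positive interaction value, against 51.8% of all genes, with a median of 0.89. An unadjusted p under 0.05 was reached by 13 of 16, against 8.31% of all genes. Across all 12393 genes, the differences with and without OVA had a Pearson r of -0.12, given as a description since genes are not independent and all arrays share 1 normalization.

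**Figure D3:**
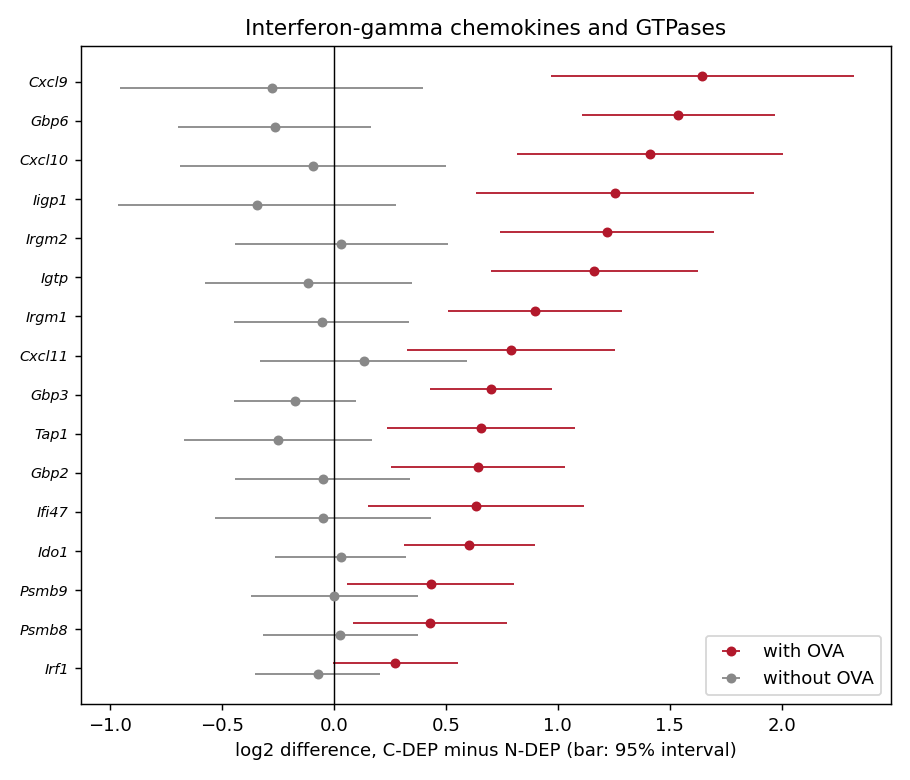
Log2 difference between C-DEP and N-DEP (x axis) with OVA in red and without OVA in grey for the 16 measured interferon-gamma genes, with 95% intervals from limma. Red points run from 0.28 to 1.65 and grey points from -0.34 to 0.13.

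Against OVA alone, both particle groups are read from the same 3 OVA arrays, so their values are given side by side. With C-DEP, 16 of 16 interferon genes passed the threshold as higher than with OVA alone. Their median was 1.19, and 3.62% of all genes passed as higher. With N-DEP, 1 of 16 passed as higher, with a median of 0.42, where 1.74% of all genes passed as higher. That gene was Iigp1, at 1.29 (limma adjusted p = 0.0195), against 2.54 with C-DEP. Cxcl9 was at 2.86 with C-DEP (limma adjusted p = 6.56e-06) and at 1.21 with N-DEP (limma adjusted p = 0.0523). Gbp6 was at 2.19 with C-DEP (limma adjusted p = 4.49e-07) and at 0.65 with N-DEP (limma adjusted p = 0.118). Compared with ADEP/OVA, 13 of 16 passed the threshold as higher in CDEP/OVA, with a median of 0.97, where 0.815% of all genes did. The list's mean level was 8.45 in CDEP/OVA, 7.56 in NDEP/OVA, 7.37 in ADEP/OVA, 7.01 with OVA alone, 7.04 in CDEP, 7.14 in NDEP and 6.97 in saline.

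Genes usually induced by type I interferons, antiviral proteins in the main, had smaller differences. Of 15 measured members, 15 had higher values in CDEP/OVA and 0 passed, with a median of 0.33. An unadjusted p under 0.05 was reached by 5 of 15, against 2.79% of all genes. The arrays did not overlap for 1 of 15 (6.67%), near the 4.25% of all genes. Ifit1, which binds viral RNA, was at 8.41, 8.63 and 8.38 in CDEP/OVA, against 8.30, 7.67 and 7.71 in NDEP/OVA, a difference of 0.58 ± 0.18 (limma adjusted p = 0.466). Only NDEP/OVA replicate 1 came near the CDEP/OVA lungs. Rsad2, which makes an antiviral nucleotide, was at 0.72 ± 0.26, the nucleic acid sensor Zbp1 at 0.45 ± 0.16, and the RNA-sensing synthase Oas1a at 0.41 ± 0.18 (limma adjusted p of 0.532, 0.526 and 0.643). Against OVA alone 8 of 15 passed the threshold as higher with C-DEP, with a median of 0.68, where 3.62% of all genes did. With N-DEP 0 passed, with a median of 0.31, where 1.74% of all genes passed as higher. NDEP/OVA replicate 1 was the highest of its group for 13 of 15 members, and CDEP/OVA replicate 3 the lowest for 13 of 15.

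Genes of NK cells and cytotoxic granules were next, since these cells make interferon gamma. Of 11 measured members, 10 had higher values in CDEP/OVA, with a median of 0.21, 0 passed and 5 had an unadjusted p under 0.05, against 2.79% of all genes. Gzmb, a granule protease that kills target cells, was at 6.10, 6.85 and 6.04 in CDEP/OVA, against 5.43, 5.66 and 5.61 in NDEP/OVA, a difference of 0.77 ± 0.17 (limma adjusted p = 0.155). The groups did not overlap. Against OVA alone, which averaged 5.51 ± 0.12 (SD, n = 3), Gzmb rose by 0.82 in CDEP/OVA (limma adjusted p = 0.00488), with 0.06 in NDEP/OVA (limma adjusted p = 0.965). It was the 1 member of 11 that passed the threshold as higher than with OVA alone with C-DEP, where 3.62% of all genes did. With N-DEP 0 members passed as higher, where 1.74% of all genes did. The list's median against OVA alone was 0.14 with C-DEP and -0.04 with N-DEP. Gzma was at 8.53, 8.56 and 7.64 in CDEP/OVA, against 7.75, 7.71 and 7.02 in NDEP/OVA, a difference of 0.75 ± 0.25 (limma adjusted p = 0.484). The pore protein Prf1 was at 0.43 ± 0.20, with -0.11 by its other probe set, and Tbx21, the transcription factor of interferon-producing lymphocytes, dim in NDEP/OVA, at 0.45 ± 0.16. Ifng itself was dim in both groups, at 3.55 ± 0.14 in CDEP/OVA and 3.55 ± 0.05 in NDEP/OVA.

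Summed intensity of the 11 NK and cytotoxic genes was 607.6 to 1004.1 in CDEP/OVA and 524.6 to 697.5 in NDEP/OVA (exact permutation p of the mean level 0.3). The sum for 15 T cell genes was 631.5 to 777.4 in CDEP/OVA and 638.5 to 783.3 in NDEP/OVA (exact permutation p = 0.6). No marker was at 0, as these normalized intensities do not reach 0, and 1 of the 11 and 5 of the 15 were dim in both groups. T cell genes differed little, with 4 of 15 higher in CDEP/OVA, a median of -0.05 and 0 with an unadjusted p under 0.05. CDEP/OVA replicate 3 was the lowest of its group for 11 of 11 NK and cytotoxic genes and 14 of 15 T cell genes, as it was for the interferon genes. Their part in the interferon result was not tested.

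**Figure D4:**
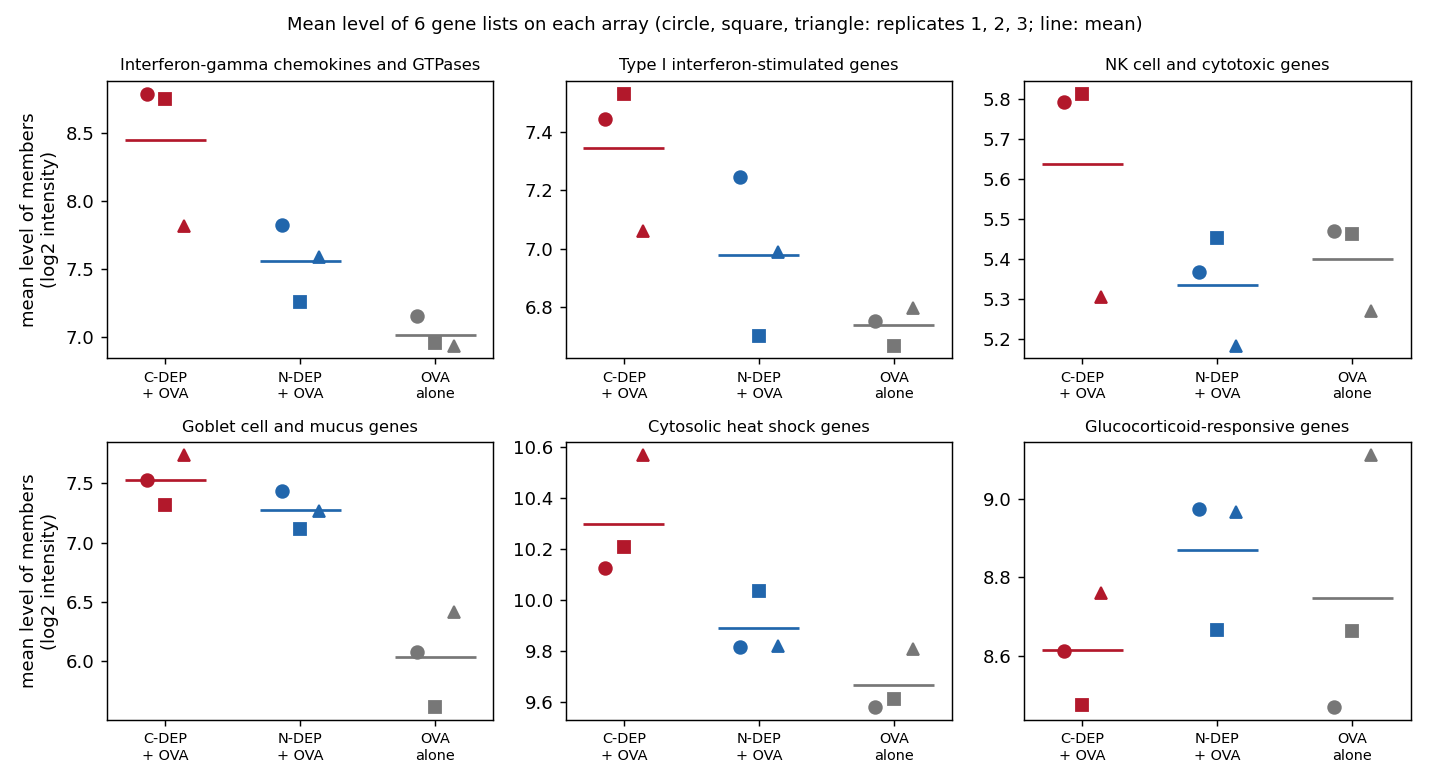
Mean level (log2 intensity) of 6 gene lists on each array of CDEP/OVA, NDEP/OVA and OVA alone, with the group mean as a line. CDEP/OVA replicate 3 (red triangle) is the lowest of its group for the interferon and NK cell lists and the highest for the goblet cell, heat shock and glucocorticoid lists.

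Mucus and goblet cell genes were high in both particle groups, with values somewhat higher in CDEP/OVA that missed the threshold. Of 19 measured members 15 had higher values in CDEP/OVA, 0 passed, and 6 had an unadjusted p under 0.05, against 2.79% of all genes, with a median of 0.29. Muc5ac, the gel-forming mucin of goblet cells, was at 7.78, 7.92 and 8.55 in CDEP/OVA, against 7.52, 7.24 and 7.82 in NDEP/OVA, a difference of 0.56 ± 0.18 (limma adjusted p = 0.467). The groups overlapped by a narrow margin. Agr2, a folding helper for mucins, was at 9.34, 9.19 and 9.83 in CDEP/OVA, against 9.10, 8.40 and 8.42 in NDEP/OVA, a difference of 0.81 ± 0.45 (limma adjusted p = 0.714). Those groups did not overlap, but its SD was 1.13 with OVA alone and 1.13 in ADEP/OVA, and the pooled standard error is wide. The lectin Itln1 was at 0.58 ± 0.19, the sugar transporter Slc5a1 at 0.44 ± 0.14, and Retnlb, a secreted goblet cell protein, at 0.40 ± 0.17 (limma adjusted p of 0.48, 0.466 and 0.619).

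For 2 of the most induced mucus genes the groups overlapped. The mucus regulator Clca1 was at 11.96, 11.51 and 12.33 in CDEP/OVA, against 11.51, 11.44 and 11.81 in NDEP/OVA, with 6.63 ± 2.75 for OVA alone (SD, n = 3). Its difference was 0.35 ± 0.90, with an interval of -1.50 to 2.20 that spans large changes in both directions. The anion exchanger Slc26a4 was at 10.01, 10.32 and 9.59 in CDEP/OVA, against 9.96, 9.67 and 9.80 in NDEP/OVA, with 5.84 ± 0.62 for OVA alone, and differed by 0.16 ± 0.29. Against OVA alone, 15 of 19 mucus genes passed the threshold as higher with C-DEP. Their median was 1.34, and 3.62% of all genes passed as higher. With N-DEP 10 of 19 passed as higher, with a median of 0.76, where 1.74% of all genes passed as higher. The list's median difference between the particles was 0.12 without CDEP/OVA replicate 3, the highest of its group for 12 of 19 members. Summed intensity was 10387.7 to 14999.9 in CDEP/OVA and 9156.2 to 12164.4 in NDEP/OVA (exact permutation p of the mean level 0.2).

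Chitinases and their enzymatically inactive relatives accompany allergic inflammation in the mouse lung. Chia1, the acidic chitinase, was at 10.42, 10.62 and 10.60 in CDEP/OVA, against 9.92, 9.87 and 9.99 in NDEP/OVA, a difference of 0.62 ± 0.24 (limma adjusted p = 0.563). Its arrays were tight in both groups and did not overlap. Chil4 was at 7.79, 7.38 and 9.14 in CDEP/OVA, against 7.49, 6.72 and 7.22 in NDEP/OVA, a difference of 0.96 ± 0.27 (limma adjusted p = 0.355), and here CDEP/OVA replicate 3 stood above the rest. Chil3 and Chil1 were at 0.12 ± 0.33 and -0.25 ± 0.21. All 4 measured chitinase genes, of 7 on the list, passed the threshold as higher than with OVA alone, with each particle. Of all genes, 3.62% passed as higher with C-DEP and 1.74% with N-DEP.

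Eotaxins attract eosinophils through the receptor Ccr3. Ccl11, eotaxin 1, was at 5.52, 5.89 and 5.53 in CDEP/OVA, against 4.97, 5.32 and 5.35 in NDEP/OVA, a difference of 0.43 ± 0.14 (limma adjusted p = 0.466). The groups did not overlap, and both lay above OVA alone, which averaged 4.26 ± 0.10 (SD, n = 3) and was dim there. Ccl24, eotaxin 2, was at 0.26 ± 0.18, while Ccl17 and Ccl22, ligands of Ccr4 on Th2 cells, were at -0.21 ± 0.18 and -0.29 ± 0.13. Over the 7 genes 4 values were higher and 3 lower in CDEP/OVA, and 0 passed. The median of 0.26 fell between 0.01 and 0.49 as single arrays were left out.

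Th2 cytokines and their receptors had values close to each other or slightly lower in CDEP/OVA. Of 20 genes 6 were higher (30%, against 44% of all genes) and 14 lower, with a median of -0.08, and 0 passed. A lower value at an unadjusted p under 0.05 was found for 2 (10%, against 4.53% of all genes). Il13, which drives goblet cells, was dim in CDEP/OVA and was at 4.40, 4.42 and 4.35 there, against 4.81, 4.44 and 4.65 in NDEP/OVA, a difference of -0.24 ± 0.10 (limma adjusted p = 0.617). Ptgdr2, a prostaglandin receptor of Th2 cells and eosinophils, was at -0.28 ± 0.11. Il4 and Il5 were dim in both groups and differed by -0.08 ± 0.12 and -0.02 ± 0.12. Of 8 measured eosinophil genes 6 were dim in both groups, among them Epx and Prg2, so the arrays give little measure of eosinophils by these markers. Il33, an epithelial alarmin that starts type 2 responses, was at 8.04, 8.91 and 8.18 in CDEP/OVA, against 7.59, 8.40 and 8.16 in NDEP/OVA, a difference of 0.32 ± 0.22 with overlapping arrays.

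Arg1 had the highest difference among 16 measured genes of alternatively activated macrophages, whose median was -0.02, with 8 higher and 8 lower. At an unadjusted p under 0.05, 3 were higher (18.8%, against 2.79% of all genes) and 1 lower (6.25%, against 4.53%). The arrays did not overlap for 3 higher (18.8%, against 4.25%) and 2 lower genes (12.5%, against 7.33%). The transcription factor Egr2 was at 5.66, 5.89 and 5.68 in CDEP/OVA, against 5.21, 5.36 and 5.40 in NDEP/OVA, a difference of 0.42 ± 0.11 with no overlap (limma adjusted p = 0.338). The haemoglobin scavenger receptor Cd163, dim in NDEP/OVA, was at 0.40 ± 0.14 and the lectin Cd209d at -0.33 ± 0.11. Retnla, one of the most abundant products of these cells, was at 13.75, 13.60 and 13.74 in CDEP/OVA, against 13.62, 13.35 and 13.58 in NDEP/OVA, and differed by 0.18 ± 0.44. It averaged 11.22 ± 1.73 with OVA alone (SD, n = 3), so both particle groups were high, and their arrays overlapped.

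Monocyte-attracting CC chemokines split between the groups. Ccl12 was at 6.28, 6.57 and 5.61 in CDEP/OVA, against 5.39, 5.23 and 5.60 in NDEP/OVA, a difference of 0.75 ± 0.21 (limma adjusted p = 0.382). Ccl2 and Ccl7 were at 0.58 ± 0.22 and 0.60 ± 0.22 (limma adjusted p of 0.554 and 0.532). These 3 ligands of Ccr2 had the same order of arrays, with CDEP/OVA replicates 1 and 2 high and replicate 3 level with NDEP/OVA. Ccl6 ran the other way, at 9.77, 9.83 and 9.49 in CDEP/OVA, against 9.71, 10.44 and 11.32 in NDEP/OVA, a difference of -0.79 ± 0.24 (limma adjusted p = 0.466), and Ccl20, a ligand of Ccr6, was at -0.42 ± 0.14. Over 11 measured members the median was 0.05. At an unadjusted p under 0.05, 4 were higher (36.4%, against 2.79% of all genes) and 2 lower (18.2%, against 4.53%).

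No neutrophil, acute phase or NF-kB gene passed the threshold. Of 18 neutrophil genes 5 were higher and 13 lower in CDEP/OVA, with a median of -0.07. An unadjusted p under 0.05 was reached by 5 of 18, all lower, against 4.53% of all genes, and 4 were lower without overlap, against 7.33%. These 5 were the granule genes Elane, Mpo, Camp and Ngp and the lectin Clec4d, at -0.21 ± 0.08, -0.27 ± 0.11, -0.35 ± 0.17, -0.27 ± 0.13 and -0.36 ± 0.17 (limma adjusted p of 0.608 to 0.675). Elane was at 5.68, 5.59 and 5.57 in CDEP/OVA, against 5.96, 5.78 and 5.71 in NDEP/OVA. The arrays did not overlap, by a narrow margin. The alarmin S100a8 had the other sign, at 7.33, 7.63 and 6.66 in CDEP/OVA, against 6.43, 6.94 and 7.51 in NDEP/OVA. Those arrays overlapped, with NDEP/OVA replicate 3 close to the highest CDEP/OVA lung. The neutrophil chemokine Cxcl1 was at 6.77, 8.09 and 6.56 in CDEP/OVA, against 6.81, 6.53 and 6.80 in NDEP/OVA, a difference of 0.43 ± 0.34 that rests on replicate 2. Among 20 acute phase genes the median was -0.05 with 0 at an unadjusted p under 0.05, and Saa3 differed by 0.07 ± 0.49 and Orm1 by -0.34 ± 0.38. In the NF-kB list the median over 15 genes was 0.02, and over 9 MHC class II genes, which interferon gamma can also induce, it was -0.07, with the transactivator Ciita at 0.17 ± 0.18.

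Heat shock genes had higher values in CDEP/OVA, and most also had higher values in CDEP than in NDEP without OVA. Of 14 measured members 14 were higher, against 44% of all genes, and 0 passed, with a median of 0.41. An unadjusted p under 0.05 was reached by 5 of 14, against 2.79% of all genes, and 5 did not overlap, against 4.25%. Hsp90aa1, a chaperone of signalling proteins, was at 11.23, 11.31 and 11.73 in CDEP/OVA, against 10.88, 11.14 and 11.01 in NDEP/OVA, a difference of 0.42 ± 0.19 (limma adjusted p = 0.668). Its other probe sets gave 0.43 and 0.06. Hspe1, the mitochondrial co-chaperone, was at 8.45, 8.53 and 9.04 in CDEP/OVA, against 8.19, 8.33 and 8.24 in NDEP/OVA, a difference of 0.42 ± 0.18 (limma adjusted p = 0.644). Neither gene overlapped, and CDEP/OVA replicate 3 was the highest array, as it was for 13 of 14 members. Without that array the median was 0.25. In CDEP minus NDEP, 13 of 14 values were higher, with a median of 0.25, and no interaction reached an unadjusted p under 0.05 in the list.

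Unfolded protein response genes, which help secretory cells fold their products, had small differences in the same direction. Of 20 members 19 were higher in CDEP/OVA, against 44% of all genes, and 0 passed, with a median of 0.17. An unadjusted p under 0.05 was reached by 4 of 20, against 2.79% of all genes, and 5 did not overlap, against 4.25%. Creld2 was at 9.78, 10.04 and 10.25 in CDEP/OVA, against 9.47, 9.44 and 9.47 in NDEP/OVA, a difference of 0.57 ± 0.20 (limma adjusted p = 0.504). Manf, a secreted stress protein, was at 0.40 ± 0.15. The chaperone Hyou1 was at 0.38 ± 0.13, with 0.14 and 0.05 by its other probe sets. Against OVA alone, 13 of 20 passed the threshold as higher with C-DEP, where 3.62% of all genes did. With N-DEP 7 of 20 passed as higher, where 1.74% of all genes did.

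Readout genes for diesel compounds did not pass the threshold in either direction. Cyp1a1, the main target of the aryl hydrocarbon receptor, was at 7.92, 7.69 and 7.91 in CDEP/OVA, against 7.48, 7.53 and 7.46 in NDEP/OVA with 7.40 ± 0.54 for OVA alone (SD, n = 3). The arrays did not overlap, but the difference of 0.35 ± 0.26 missed the threshold (limma adjusted p = 0.791), with an interval of -0.18 to 0.88. Cyp1b1, whose probe sets differ in sign, and Cyp1a2 were at -0.31 ± 0.22 and -0.30 ± 0.10, and the median over 9 genes was -0.06. Among 19 NRF2 genes the median was 0.02 and 0 passed. Haem oxygenase Hmox1 was at 7.79, 8.12 and 7.41 in CDEP/OVA, against 8.14, 7.67 and 8.14 in NDEP/OVA, a difference of -0.21 ± 0.16, and the quinone reductase Nqo1 was at 0.06 ± 0.14.

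Lower values in CDEP/OVA were found in genes that respond to glucocorticoids and in genes of fat and heart muscle, tissues that can come with dissected lung. Of 15 glucocorticoid-responsive genes 13 were lower, 0 passed and 2 had an unadjusted p under 0.05, against 4.53% of all genes, with a median of -0.18. Per1, also a clock gene, was at 7.79, 7.19 and 8.35 in CDEP/OVA, against 8.56, 8.12 and 8.80 in NDEP/OVA, a difference of -0.72 ± 0.30 with overlapping arrays (limma adjusted p = 0.612). Without OVA the list's median had the other sign, at 0.20. Fat cell genes had 12 of 13 lower values, with a median of -0.23 and summed intensities of 1463.6 to 1578.5 in CDEP/OVA and 1644.4 to 2336.5 in NDEP/OVA (exact permutation p of the mean level 0.4). Heart muscle genes had 15 of 20 lower values, with a median of -0.24 and sums of 3695.0 to 5270.6 in CDEP/OVA and 4369.3 to 5991.1 in NDEP/OVA (exact permutation p = 0.4). With the heart and fat scores as covariates, a fit chosen after seeing the data, the Gbp6 difference was 1.35 and passed (limma adjusted p = 0.0325). The part of these tissues in the Gbp6 difference was not tested.

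**Figure D5:**
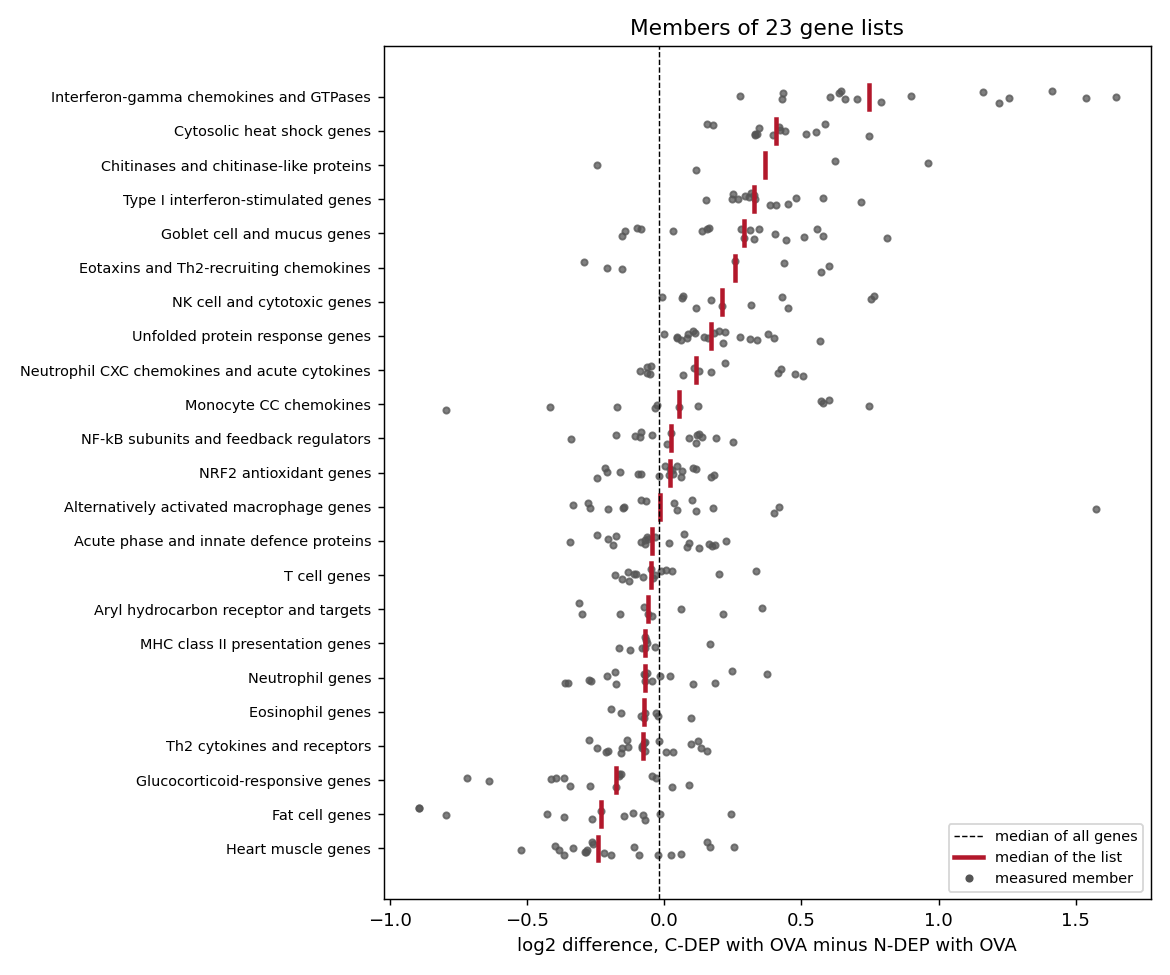
Log2 difference between CDEP/OVA and NDEP/OVA (x axis) of every measured member of 23 gene lists, with the list medians in red and the median of all genes, -0.02, as a dashed line. The interferon-gamma list has the highest median, 0.75, the heat shock list follows at 0.41, and the fat and heart muscle lists are lowest at -0.23 and -0.24.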

How the data were processed

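The data are 24 single-channel Affymetrix arrays, each from 1 mouse lung. The deposited values are intensity on a linear scale, normalized by the authors with RMA per the submitters' processing notes, whose version is not given in the sources used here. The planned fit assumed log2 values, so log2 was taken first. Of 22690 probe sets, 64 were controls and 20380 had 1 gene symbol; each of 12393 genes was read from the probe set with the highest mean over all arrays. One limma model (limma 3.58.1, R 4.3.3) held 8 group means over all 24 arrays, without trend, with two-sided moderated tests and Benjamini-Hochberg adjustment over all genes. The script was tested on simulated data. Single values were compared by exact two-sided permutation of 3 against 3 arrays.

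Groups came from the sample titles, and each array is labelled as a biological replicate. P-values measure the spread between these arrays, and those of limma pool it over all 8 groups. The members, 48 gene lists and tests were chosen with earlier results of these data known, so counts over a list are a description. Named genes are the 10 with the smallest p, since under 5 passed, up to 5 members of each described list with the smallest p, the 3 with the smallest p without OVA and 24 readout genes; other list members are named as examples. Alternatives covered probe set choice, a filter on dim probe sets, quantile normalization, array weights, variance trend, a fit of the compared groups, a replicate block and leaving out each array. Same-numbered arrays of CDEP/OVA and NDEP/OVA had correlations of their deviations of 0.069, 0.05 and -0.323, so the numbers were not taken as pairs. Upstream sequences are from RefSeq (GRCm38.p6). Array background was not analysed here, and no batch was given in the sources used here.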

Additional observations from a re-analysis of the deposited data

Results flagged for a closer look

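Gbp6 had a difference between C-DEP and N-DEP that itself differed between lungs with and without OVA. The log2 difference was 1.54 with OVA and -0.26 without it, and the difference between these was 1.80 ± 0.30 (limma interaction test, adjusted p = 0.0324). Gbp6 was higher in 3 of 3 CDEP/OVA lungs than in every NDEP/OVA lung. The interaction had the same direction with each of the 12 arrays left out in turn, between 1.56 and 2.14, and its adjusted p then lay between 6.56e-05 and 0.213. The OVA and non-OVA groups also differ in the sensitization label, which cannot be told apart from OVA.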

How the results depend on the processing

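With 3 arrays a group, the count of genes past the threshold in CDEP/OVA minus NDEP/OVA depended on the spread estimate and on 2 arrays. It was 1 as reported, 2 with quantile normalization, 13 with array weights, 6 with the replicate block, 9 with RNA quality covariates (chosen after seeing the data) and 0 in the fit limited to these 6 arrays, and 1 to 30 with single arrays left out. The genes of the block fit were Gbp2b, Gbp3, Gbp6, Gbp8, Igtp and Irgm2. Every gene that passed under these settings was higher in CDEP/OVA, except Ccl6 and Fabp4 without NDEP/OVA replicate 1. CDEP minus NDEP had 0 calls, and 1, the clock gene Dbp, lower, in the fit of its own 6 arrays. The interaction count was 1 as reported, 0 on all probe sets, on the mean of a gene's probe sets, with quantile normalization, with a trended variance and in the compared groups alone, 6 with array weights and 0 to 10 with single arrays left out. The Gbp6 interaction then had adjusted p of 0.0621 (mean of probe sets), 0.0603 (quantile), 0.0816 (trend) and 0.339 (compared groups), and 0.00409 with the replicate block.

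Directions reversed only in genes that missed the threshold, and the cause was not tested. Sod1 was at -0.067 on the mean of its probe sets, Il5 at 0.056 with quantile normalization, Chil3 at -0.15 with array weights, and Saa3, Retnla, Serpina3n and Cd74 at -0.51, -0.078, -0.027 and 0.014 with heart and fat covariates. With single arrays left out, ranges spanned 0 for Nqo1 (-0.015 to 0.11), S100a8 (-0.016 to 0.52), Il5 (-0.11 to 0.073), Cd3g (-0.014 to 0.36), Chil3 (-0.55 to 0.45), Orm1 (-0.91 to 0.038), Saa3 (-0.23 to 0.31), Il5ra (-0.14 to 0.025), Serpina3n (-0.049 to 0.48), Sod1 (-0.015 to 0.33), H2-Eb1 (-0.34 to 0.034), Cd74 (-0.21 to 0.069), Cxcl1 (-0.049 to 0.72), Slc26a4 (-0.012 to 0.36) and Itih4 (-0.44 to 0.053). Dim genes are limited by signal over background, which was not analysed here.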

Other observations

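Of the 10 genes that differed by at least 1 in log2, Upk3b and Sfrp2 are given here, chosen after their values were seen. They belong to no interferon list and were not among the 10 genes with the smallest p. Arg1, also not on the interferon-gamma list, is described above. Upk3b, a uroplakin known as a marker of mesothelial cells, was at 8.22, 7.71 and 8.28 in CDEP/OVA, against 6.37, 7.54 and 6.95 in NDEP/OVA, a difference of 1.12 ± 0.40 (limma adjusted p = 0.528). Sfrp2, a secreted modulator of Wnt signalling made by fibroblasts, was at 5.53, 5.14 and 5.34 in CDEP/OVA, against 4.22, 4.42 and 4.27 in NDEP/OVA, a fitted difference of 1.03 ± 0.23 (limma adjusted p = 0.155). The NDEP/OVA levels lay below the lowest 25th percentile of the arrays, 4.45, so Sfrp2 is not shown above background there and the size of its difference is uncertain. Neither gene overlapped between the groups, and neither passed the threshold. CDEP/OVA replicate 3, the lowest of its group for the interferon genes, was the highest for Upk3b.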
